A study of Mus musculus with 12 samples.

Results

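The nuclear genes for the subunits of the mitochondrial respiratory chain and the ATP synthase were followed in tumourspheres of metastatic mouse mammary tumour lines and of lines labelled as lacking Nfib. Members were chosen by name. They were the protein-coding genes of the mouse annotation whose symbol starts with Nduf, Sdha, Sdhb, Sdhc, Sdhd, Uqcr, Cox4, Cox5, Cox6, Cox7, Cox8 or Atp5. The count files held 92 such genes among 18278 in all, and all 92 passed the filter on low counts. They carry 91 symbols, because Atp5o is listed under 2 overlapping gene identifiers. Of the 92 genes, 79 encode subunits. Complex I had 36, complex II 4, complex III 8, complex IV 14 and complex V 17. The other 13 are assembly factors of complexes I and II and the ATP synthase-related gene Atp5s. Genes of the same name pattern not analysed here were Cox4i2, Cox6b2, Cox7b2, Cox8b, Cox8c and Ndufa4l2.

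LM1 and LM9 are cell lines grown out of lung metastases in mice, and both descend from HR1, a line from a PIK3CA H1047R mutant mammary tumour that had been mutagenised with the piggyBac transposon. Each was sequenced as the parental line and as a line labelled Nfib KO, in which the transcription factor gene Nfib had been targeted with CRISPR-Cas9 and single-cell clones pooled. The 4 groups (LM1, LM1KO, LM9 and LM9KO) held 3 libraries each. All cells had been grown for 6 days as spheres on ultra-low attachment plates in DMEM:F12 with B27, EGF, basic FGF and penicillin/streptomycin, so these conditions are common to every group. The labels do not say that the 3 libraries of a group came from separate cultures, so the p-values cover the spread between these libraries, which may be technical.

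In the inner mitochondrial membrane, complexes I and II pass electrons from NADH and succinate to ubiquinone. Complex III hands them to cytochrome c, and complex IV gives them to oxygen. Complexes I, III and IV pump protons, and complex V, the ATP synthase, uses the returning protons to make ATP. All complexes but complex II combine proteins encoded in the nucleus with proteins encoded in mitochondrial DNA, and the subunits have to be made in balance to assemble. Nuclear respiratory factor 1 (NRF1), ETS family factors of the GABP type and YY1 are textbook regulators of the nuclear subunit genes.

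The promoter stretches of 5 genes whose mRNAs moved in opposite directions within complexes II and III are shown as examples of that split, out of those with a promoter entry. Sdhc and Uqcrq had none. Each line gives the 100 bases before the RefSeq transcription start on the GRCm38.p6 assembly, 5′ to 3′ on the gene's own strand, with the letters that match a searched motif in capitals. Sdhb at chr4:140961171-140961270 on the plus strand holds the NRF1 letters. Sdhd at chr9:50603850-50603949, Uqcr11 at chr10:80406822-80406921 and Uqcrh at chr4:116075071-116075170, all on the minus strand, hold the ETS letters. Uqcr10 at chr11:4704345-4704444 on the minus strand holds none of the letters searched. The wider windows of Sdhb and Uqcr11 also hold ETS and NRF1 letters, respectively, outside these stretches.
Sdhb: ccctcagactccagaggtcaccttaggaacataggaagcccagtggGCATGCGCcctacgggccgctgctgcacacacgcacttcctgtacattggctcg
Sdhd: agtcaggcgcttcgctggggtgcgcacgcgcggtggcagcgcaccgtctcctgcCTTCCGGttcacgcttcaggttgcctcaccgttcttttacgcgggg
Uqcr11: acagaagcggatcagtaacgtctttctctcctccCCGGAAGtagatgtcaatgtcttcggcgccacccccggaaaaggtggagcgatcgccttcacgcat
Uqcr10: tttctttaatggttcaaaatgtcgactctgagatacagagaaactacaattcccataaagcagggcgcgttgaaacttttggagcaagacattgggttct
Uqcrh: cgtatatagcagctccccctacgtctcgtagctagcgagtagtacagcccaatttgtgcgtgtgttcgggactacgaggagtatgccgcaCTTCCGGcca

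Motifs were sought on both strands in windows from 250 bases before to 50 bases after the RefSeq start, and 64 subunit genes had such a window. The NRF1 letters GCGCATGC (GCATGCGC on the other strand) lay in 10 of 64 windows (15.6%), against 5.57% of 11077 tested genes and 3.05% of all 27025 genes in the table. The YY1 letters AAGATGGC (GCCATCTT) lay in 9 of 64 (14.1%), against 4.98% and 3.19%. The ETS letters CCGGAAG, or CTTCCGG on the other strand, lay in 16 of 64 (25%), against 19.0% and 9.93%. Among the 25 subunit genes with a window that rose with the KO label, on average over both lines, 5 held the NRF1, 7 the ETS and 5 the YY1 letters. Among the 21 that fell, the numbers were 1, 5 and 0. The letters were not counted among all rising and all falling genes, so these numbers cannot be read as particular to the subunits. A match describes letters in a window and is not a binding site.

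The libraries held 29249075 to 37162594 counts. Levels are given as CPM, counts relative to the library total, with the totals scaled by the trimmed mean of M values (TMM), on which scale 3 counts correspond to about 0.1 CPM. The targeted gene was not lower in the KO-labelled libraries. Nfib had 218 ± 22.6 CPM (SD, n = 3) in LM1 and 235 ± 5.67 in LM1KO, and 154 ± 48.8 in LM9 and 240.0 ± 11.2 in LM9KO. Its limma-voom log2 fold change was 0.11 in LM1 (adjusted p = 0.533) and 0.68 in LM9 (adjusted p = 0.0026), so LM1KO and LM9KO name libraries by their labels only. mRNA level does not report whether a protein is made from it.

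Luminal markers of the labelled tissue were much lower in the KO-labelled libraries. Of 8 luminal mammary epithelial markers 7 had values, and their summed level was 865 to 922 CPM in LM1 and 922 to 1465 in LM9, against 33.8 to 34.9 and 34.3 to 34.5 in the LM1KO-labelled and LM9KO-labelled libraries, where Krt8, Krt18 and Cdh1 had group means of 0.12 CPM or less and Esr1 made up most of the sum (26 and 26.9 CPM). The sum over 5 of 6 kidney collecting duct markers was 7.37 to 8.03 in LM1, 7.86 to 26 in LM9, 1061 to 1111 in LM1KO and 979 to 1054 in LM9KO, nearly all of it Aqp2. The sum over 3 of 5 endothelial markers was 0.213 to 0.470 in LM1, 0.202 to 1.33 in LM9, 355 to 358 in LM1KO and 350.5 to 359 in LM9KO. That over 6 of 7 fibroblast markers was 293 to 311, 174 to 288, 1347 to 1381 and 1289 to 1346. Either sum may rest on 1 gene, as the kidney sum did on Aqp2, so neither names a cell type. Leukocyte markers were covered by Cd68 alone of 5, at 450.2 to 467 CPM in LM1, 466 to 554 in LM9, 98.8 to 103 in LM1KO and 95.7 to 104 in LM9KO. The basal epithelial list (2 of 5) summed to 15.8 to 19.1 CPM in LM1, 0.354 to 17.9 in LM9, 6.95 to 7.17 in LM1KO and 6.32 to 7.13 in LM9KO. The muscle (2 of 5) and erythroid (1 of 3) lists each summed to at most 2.51 CPM in every library. These shifts go with the KO label in every comparison below, their part in the results was not tested, and in bulk samples fewer cells of a type and less RNA per cell cannot be told apart.

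The LM9 library of replicate 1 also stood apart from its group. Its median absolute log2 distance from the LM1 mean was 0.0407 over the subunits, against 0.432 and 0.375 for the other LM9 libraries, and over all genes tested the distances were 0.0671, 0.519 and 0.490. Counts over all members and by complex are therefore given with and without it, other counts with all libraries, and single members without it where a call, a direction or the size of a called change (by over 1.5 times) differs.

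Respiratory chain genes moved with the KO label in both directions, mostly by small steps. In LM1, 43 of 92 members were higher in the LM1KO-labelled libraries (46.7%, against 43.1% of the 18176 genes tested) and 28 were lower (30.4%, against 38.1%), while 21 did not pass the limma-voom test at an adjusted p of 0.05. In LM9, 31 were higher (33.7%, background 44.3%), 35 were lower (38.0%, background 38%) and 26 did not pass. On average over both lines, 37 rose (40.2%, background 46.3%), 34 fell (37%, background 40.5%) and 21 did not pass. Each count of rises includes Cox6a2, which entered the files through the group where it was high, so its call carries no weight. The changes were small beside those over all genes. Only 24 of 92 (26.1%) were called with a change of more than 1 on the log2 scale, against 56.7% of all genes tested. The median absolute log2 fold change was 0.59 over members and 1.20 over all genes, and the median signed change over the 79 subunits was 0.05, beside 0.11 over all genes.

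The direction split depended on the scaling. With library totals and no scaling factors, 59 members rose and 25 fell on average (all genes 52.8% and 33.6%), 54 and 21 in LM1 (48% and 32.9%), and 50 and 25 in LM9 (52.3% and 30.2%), while the median over all genes moved from 0.11 to 0.40. The split also depended on LM9 replicate 1. Without it, 41 members rose and 41 fell on average (all genes 48.9% and 43%), and 51 and 31 in LM1 (46.4% and 42.1%). In LM9 33 rose (35.9%, all genes 47.7%) and 53 fell (57.6%, all genes 41.2%). The 57 members that share no exon bases with another gene gave 20 rises (35.1%) and 25 falls (43.9%) on average with all libraries and TMM scaling, beside 46.3% and 40.5% of all genes.

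**Figure D1:**
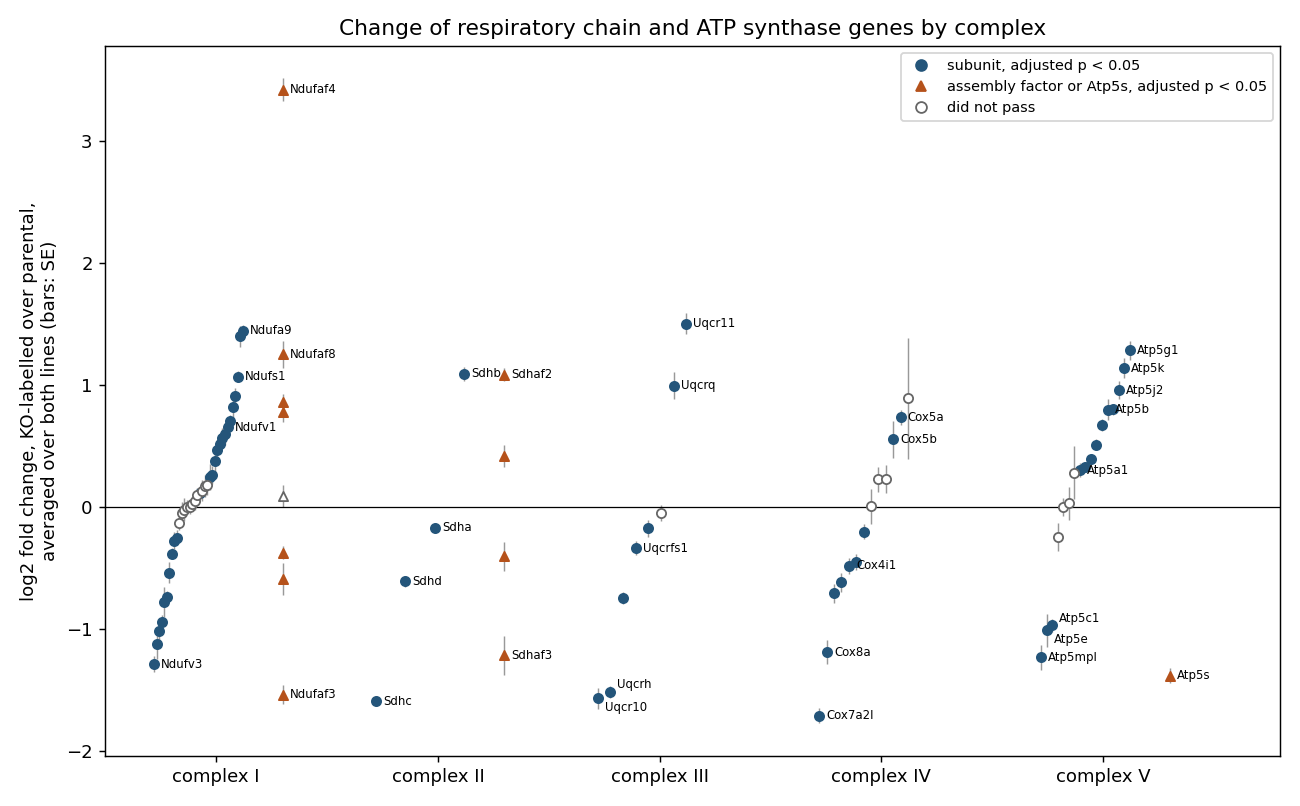
Log2 fold change of each member with the KO label, averaged over LM1 and LM9, by complex, with bars for the SE. Filled symbols passed an adjusted p of 0.05 in limma-voom, open symbols did not, and triangles mark assembly factors and Atp5s. Cox6a2, at 0 or 1 counts in every parental library, is not drawn. Every complex holds members on both sides of 0, and complex V holds 10 subunits that rose and 3 that fell.

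The subunits were also counted by complex. Averaged over the lines, complex I had 15 subunits up, 10 down and 11 that did not pass (median log2 fold change 0.11), complex II 1 up and 3 down (median -0.39), complex III 2 up, 5 down and 1 that did not pass (median -0.26), complex IV 3 up, 7 down and 4 (median -0.10), and complex V 10 up, 3 down and 4 (median 0.32). Over all genes tested 46.3% were higher and 40.5% lower. In LM1 the subunits up and down numbered 18 and 8 in complex I (median 0.18), 1 and 3 in complex II (-0.35), 2 and 4 in complex III (-0.15), 6 and 6 in complex IV (0.15) and 10 and 3 in complex V (0.41), beside 43.1% and 38.1% of all genes. In LM9 they numbered 11 and 10 (median -0.04), 1 and 3 (-0.44), 2 and 5 (-0.36), 2 and 7 (-0.38) and 9 and 4 (0.24), beside 44.3% and 38%, so the median of complex IV was positive in LM1 and negative in LM9.

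These splits moved with the processing. Without LM9 replicate 1 the average counts up and down were 17 and 13 in complex I, 1 and 3 in complex II, 2 and 6 in complex III, 5 and 8 in complex IV and 10 and 5 in complex V, beside 48.9% and 43% of all genes. In LM9 they were then 12 and 20 in complex I (median -0.18), 1 and 3 in complex II (-0.47), 2 and 6 in complex III (-0.48), 2 and 11 in complex IV (-0.56) and 10 and 6 in complex V (0.20), beside 47.7% and 41.2% of all genes, so the near-even LM9 split of complex I rested on that library. In LM1, whose libraries do not include it, they were 22 and 9, 1 and 3, 2 and 4, 7 and 6, and 12 and 3, beside 46.4% and 42.1%. With library totals the average medians became 0.39, -0.11, 0.03, 0.19 and 0.61, so those of complexes III and IV changed sign, and the counts up and down became 26 and 7 in complex I, 2 and 2 in complex II, 4 and 3 in complex III, 7 and 6 in complex IV and 13 and 3 in complex V, beside 52.8% and 33.6% of all genes. On both scales complex II had the lowest average median and complex V the highest. These medians are descriptions of the lists, and no test was made between complexes.

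Complex I oxidises NADH through a flavin and a row of iron-sulphur clusters held by its core subunits. Ndufs1, which carries iron-sulphur clusters of the NADH-oxidising arm, had 46.2, 46.9 and 44.2 CPM in LM1, 103, 101 and 104 in LM1KO, 47.6, 53.9 and 55.0 in LM9 and 104, 102 and 99.5 in LM9KO. All KO-labelled libraries lay above all parental ones. Its average log2 fold change was 1.07 ± 0.04 (SE), a 2.10-fold rise, with a limma-voom adjusted p of 4.8e-10. Ndufs1 shares exon bases with Eef1b2 on the opposite strand (-1.01), and the sources used here do not say whether strand was used in counting.

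The flavin-binding core subunit Ndufv1 rose from 56.7 to 93.9 CPM in LM1 and from 61.2 to 90.9 in LM9 (average log2 fold change 0.65 ± 0.04, adjusted p = 1.25e-08). Ndufs7 and Ndufs8, which hold the clusters closest to ubiquinone, rose by 0.91 and 0.56. Ndufs3 and Ndufv2 had 0.09 and -0.02 and did not pass.

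Among the 29 accessory subunits, which surround the core, 11 rose (37.9%, background 46.3%), 9 fell (31.0%, background 40.5%) and 9 did not pass. Ndufa9, near the ubiquinone site, had 26.2, 27.1 and 25.1 CPM in LM1, 75, 77.9 and 73.5 in LM1KO, 25.6, 28.6 and 30.3 in LM9 and 72.3, 70.2 and 73.4 in LM9KO. It rose 2.72-fold (1.44 ± 0.05, adjusted p = 7.98e-11), and Ndufa1 rose by 1.4. Ndufv3, an accessory subunit of the NADH-oxidising arm, had 90.0, 80.4 and 82.2 CPM in LM1, 38.3, 36.5 and 37.6 in LM1KO, 84.2, 103 and 108 in LM9 and 35.8, 36.2 and 37.9 in LM9KO. Here the parental libraries were all higher, with a log2 fold change of -1.29 ± 0.06 (adjusted p = 2.45e-09). Ndufb9 (-1.12) and Ndufa6 (-1.02) also fell, but Ndufb9 shares exons on its own strand with Gm49356, which had -1.13, and counts of the 2 genes may not be separable. Ndufa2, Ndufa3, Ndufab1 and Ndufs4 lay between -0.00 and 0.05 and did not pass.

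The largest average change among complex I genes was in an assembly factor. Ndufaf4, an early-acting factor of complex I assembly, had 2.87, 3.25 and 2.10 CPM in LM1 and 2.77, 3.38 and 3.35 in LM9, against 30.7, 32.0 and 29.8 in LM1KO and 31.2, 33.4 and 31.5 in LM9KO. That is a 10.7-fold rise (3.42 ± 0.10, adjusted p = 1.65e-11), at nearly equal levels in both KO-labelled lines. Its partner factor Ndufaf3 had 22.7, 19.0 and 20.6 CPM in LM1, 6.80, 6.27 and 7.16 in LM1KO, 20.8, 16.2 and 18.4 in LM9 and 6.69, 6.86 and 6.45 in LM9KO. Ndufaf3 fell 2.91-fold (-1.54 ± 0.08, adjusted p = 3.34e-09), so factors known to act together went opposite ways, though Ndufaf3 overlaps Impdh2 on the opposite strand (-1.29). Over all 8 Ndufaf genes 4 rose (Ndufaf4, Ndufaf8 at 1.25, Ndufaf1 at 0.86 and Ndufaf2 at 0.78), 3 fell (Ndufaf3, Ndufaf6 at -0.59 and Ndufaf7 at -0.37) and Ndufaf5 did not pass, shares of 50% and 37.5% beside 46.3% and 40.5% of all genes.

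Complex II, the succinate dehydrogenase that also works in the citric acid cycle, is encoded wholly in the nucleus, and of its 4 subunit mRNAs 1 rose (25%, background 46.3%) and 3 fell (75%, background 40.5%). Sdhb, the iron-sulphur subunit, had 52.4, 50.5 and 50.5 CPM in LM1, 121, 121 and 122 in LM1KO, 54.3, 69.1 and 68.4 in LM9 and 125, 119.6 and 119.6 in LM9KO. Sdhb rose 2.13-fold (1.09 ± 0.06, adjusted p = 4.52e-09). Sdhc, one of the membrane anchors that hold the heme and bind ubiquinone, had 162, 157 and 156 CPM in LM1, 51.8, 52.9 and 51.6 in LM1KO, 156, 149 and 155 in LM9 and 51.8, 49.9 and 50.7 in LM9KO. It fell 3.02-fold, with the smallest p of any member in the averaged contrast (-1.60 ± 0.03, adjusted p = 2.32e-12), and no library of one label reached the range of the other.

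The other anchor, Sdhd, fell from 131 to 90.7 CPM in LM1 and from 151 to 93.3 in LM9 (-0.61 ± 0.04, adjusted p = 8.22e-08). Sdha, the flavin-bearing catalytic subunit, moved little, from 195 to 174 CPM in LM1 and from 198 to 175 in LM9. Its change of -0.17 ± 0.03 passed the test (adjusted p = 0.0005), but it became 0.11 with library totals. Counts of Sdhb per count of Sdhc were 0.322 to 0.324 in LM1 and 2.28 to 2.35 in LM1KO, and 0.349, 0.464 and 0.440 in LM9 and 2.36 to 2.41 in LM9KO. This ratio, like the others between members given for description, was chosen after the values were seen.

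The assembly factors of complex II split likewise. Sdhaf2, which attaches the flavin to Sdha, rose from 29.8 to 67.0 CPM in LM1 and from 32.6 to 65.1 in LM9 (1.08 ± 0.05, adjusted p = 1.96e-09). Sdhaf2 shares exons with Cpsf7 on the opposite strand, which rose by 0.58. Sdhaf4 also rose (0.42), while Sdhaf3 (-1.22) and Sdhaf1 (-0.41), which act on the Sdhb clusters, fell.

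Of the 8 complex III genes that the name pattern chose, the small subunits Uqcr11 and Uqcrq rose. The pattern leaves out Cyc1 and the mitochondrially encoded mt-Cytb, also subunits of complex III, whose values follow with their own lists. Uqcr11 had 33.7, 24.9 and 27.4 CPM in LM1, 71.9, 71.7 and 70.1 in LM1KO, 26.4, 19.1 and 19.1 in LM9 and 67.8, 68.9 and 68.5 in LM9KO. It rose 2.83-fold (1.5 ± 0.09, adjusted p = 8.92e-09) and Uqcrq rose by 0.99 ± 0.11 (adjusted p = 4.86e-06), from 32.0 to 77.1 CPM in LM1 and from 45.9 to 72.8 in LM9. Uqcr10, another small subunit, had 153, 150.1 and 148 CPM in LM1, 55.6, 57.1 and 58.7 in LM1KO, 147, 216 and 211 in LM9 and 57.1, 55.8 and 56.0 in LM9KO. Uqcr10 fell 2.97-fold (-1.57 ± 0.09, adjusted p = 5.82e-09). The hinge subunit Uqcrh, which helps cytochrome c dock, fell from 239 to 89.7 CPM in LM1 and from 273 to 88.4 in LM9 (-1.52 ± 0.05, adjusted p = 6.12e-11). Of the core proteins, Uqcrc2 fell by 0.75 on the log2 scale and Uqcrc1 had -0.05 (adjusted p = 0.479). The Rieske iron-sulphur protein Uqcrfs1, which takes electrons from ubiquinol, had -0.34 ± 0.06 (adjusted p = 0.000161), and its LM1 change of -0.22 became 0.0046 with library totals.

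**Figure D2:**
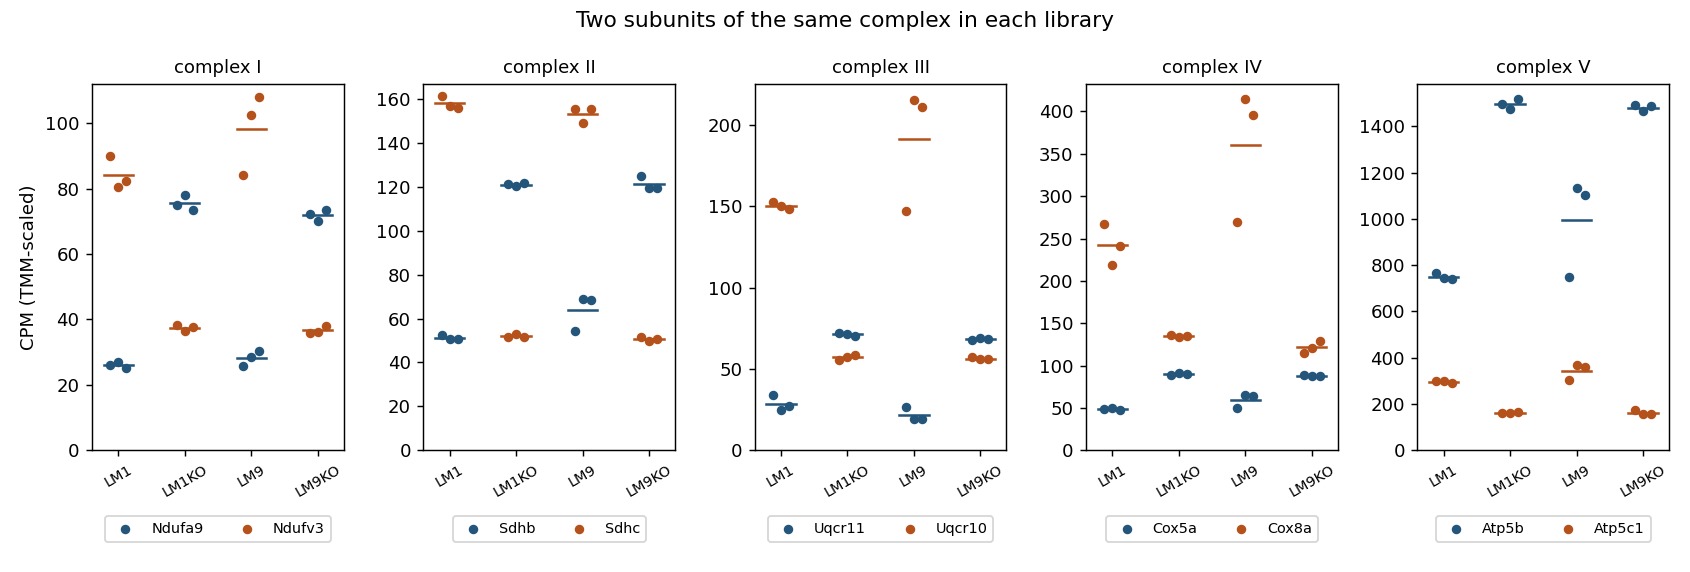
TMM-scaled CPM of 1 member that rose and 1 that fell in each complex, with a point for every library, a line at each group mean and axes from 0. Ndufa9, Sdhb, Uqcr11, Cox5a and Atp5b are higher, and Ndufv3, Sdhc, Uqcr10, Cox8a and Atp5c1 lower, in all 6 KO-labelled libraries than in all 6 parental ones.

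Complex IV, cytochrome c oxidase, had 3 rises among 14 subunits on average (21.4%, background 46.3%). These include Cox6a2, whose call carries no weight. Cox4i1, the large regulatory subunit, fell from 248 to 194 CPM in LM1 and from 294 to 191 in LM9 (-0.48 ± 0.07, adjusted p = 2.65e-05), while Emc8 on the opposite strand, with which it shares exon bases, rose by 0.98. Cox5a, a nuclear subunit of complex IV, had 48.3, 49.3 and 47.1 CPM in LM1, 88.7, 91.5 and 90.0 in LM1KO, 49.9, 65.3 and 64.4 in LM9 and 88.6, 88.2 and 87.3 in LM9KO. It rose by 0.74 ± 0.06 (adjusted p = 3.37e-07). Cox5b, the zinc-binding subunit, rose on average by 0.55 ± 0.15 (adjusted p = 0.00477), from 11.8 to 25 CPM in LM1, but was at 21.9 and 20.9 CPM in LM9 and LM9KO. Its LM9 change was 0.01 (adjusted p = 0.976) and, without LM9 replicate 1, -0.30.

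Cox8a, the smallest common subunit, had 267, 219 and 241 CPM in LM1, 136, 133 and 135 in LM1KO, 269.8, 415 and 396 in LM9 and 115, 121 and 128 in LM9KO. The fall was 2.29-fold (-1.19 ± 0.10, adjusted p = 2.62e-07). Ndufa4 (-0.71), Cox7c (-0.62) and Cox6b1 (-0.45) also fell, and Cox7b (0.22) and Cox6c (0.23) did not pass.

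The largest fall of any member on average over both lines was in Cox7a2l, which links complexes III and IV in supercomplexes. It had 279.7, 269 and 270.2 CPM in LM1, 91.6, 89.9 and 91.0 in LM1KO, 275, 359.6 and 354 in LM9 and 93.9, 89.2 and 91.1 in LM9KO. It fell 3.28-fold (-1.71 ± 0.06, adjusted p = 1.77e-10). Its paralogue Cox7a2, the subunit of most tissues, had -0.21 ± 0.06 (adjusted p = 0.00802), which became 0.080 with library totals. Cox7a1, the heart and muscle form, stayed below 1 CPM in every group mean (0.131, 0.364, 0.415 and 0.321 CPM in LM1, LM1KO, LM9 and LM9KO).

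The heart and muscle isoform Cox6a2 was seen almost only in KO-labelled libraries. It had 0 counts in each LM1 library and 0, 1 and 1 in LM9, against 242 to 272 counts in LM1KO and 226 to 253 in LM9KO. This put it at 6.52 ± 0.28 CPM (SD, n = 3) in LM1KO and 6.07 ± 0.43 in LM9KO, at least 60.1-fold and 50.3-fold higher than a floor of 3 counts per parental library. The files list only genes with 8 or more counts in their third-highest library, so Cox6a2 entered through the group where it was high. Its calls therefore carry no weight. The 2 listed muscle markers, Des and Myod1, reached a summed 2.51 CPM at most. The common isoform Cox6a1 had 133, 112 and 123 CPM in LM1, 162, 157 and 168 in LM1KO, 128, 254 and 242 in LM9 and 142, 150.4 and 159 in LM9KO. Its average change of 0.00 ± 0.15 did not pass, and the LM9 libraries lay on both sides of the KO-labelled ones.

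Complex V couples a catalytic F1 head to a rotor and stalk (Fo) in the membrane. Of the 5 F1 subunits 2 rose (40%, background 46.3%), 2 fell (40%, background 40.5%) and 1 did not pass. Atp5b, the catalytic beta subunit, had 767, 742 and 740.5 CPM in LM1, 1498, 1477 and 1516 in LM1KO, 750.4, 1132 and 1103 in LM9 and 1491, 1466 and 1486 in LM9KO. It rose by 0.80 ± 0.09 (adjusted p = 3.68e-06). Atp5c1, the gamma shaft that turns inside the head, had 300.2, 301 and 289 CPM in LM1, 160.3, 162 and 164 in LM1KO, 303, 367 and 361 in LM9 and 173, 158 and 157 in LM9KO. It fell by 0.97 on the log2 scale (SE 0.05, adjusted p = 5.9e-09), so there were 2.46 to 2.57 counts of Atp5b per count of Atp5c1 in LM1, 2.48 to 3.08 in LM9 and 8.60 to 9.47 in the KO-labelled libraries.

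Atp5a1, the alpha subunit that alternates with beta in the head, rose by 0.30 (SE 0.06, adjusted p = 0.000494), and its LM9 change of 0.18 did not pass (adjusted p = 0.062), but without LM9 replicate 1 it was 0.068 and passed (adjusted p = 0.0256). Atp5e, in the central stalk, fell (-1.01 ± 0.14, adjusted p = 2.15e-05), and Atp5d was at -0.00 (adjusted p = 0.993).

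Of the 12 Fo and stalk subunits 8 rose (66.7%, background 46.3%), 1 fell (8.33%, background 40.5%) and Atp5h (0.03), Atp5l (-0.25) and Atp5g2 did not pass. Atp5k, a membrane subunit at the dimer contact, had 23.3, 25.4 and 21.6 CPM in LM1, 57.5, 61.2 and 60.6 in LM1KO, 25.4, 37.6 and 33.3 in LM9 and 61.7, 59.8 and 58.0 in LM9KO. It rose 2.20-fold (1.14 ± 0.08, adjusted p = 8.1e-08) and Atp5j2 rose 1.94-fold (0.96 ± 0.07, adjusted p = 1.29e-07). Atp5mpl was the one that fell, from 65.4 to 32.8 CPM in LM1 and from 90.8 to 32.0 in LM9 (-1.23 ± 0.10, adjusted p = 2.8e-07). Atp5s, a regulatory factor rather than a subunit, fell by 1.39 on the log2 scale.

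The rotor ring of subunit c is made from 3 genes that encode the same mature protein. Atp5g3 supplied most counts and rose from 136 to 234 CPM in LM1 and from 129.8 to 228 in LM9 (0.80 ± 0.04, adjusted p = 5.24e-09). Atp5g1 had 5.0, 5.09 and 5.20 CPM in LM1, 14.2, 14.4 and 13.9 in LM1KO, 5.26, 6.93 and 6.77 in LM9 and 13.2, 12.5 and 14.5 in LM9KO, a rise of 1.29 ± 0.08 (adjusted p = 1.52e-08). Atp5g2 had group means of 0.471 to 0.752 CPM and did not pass (0.28, adjusted p = 0.242). The log2 share of Atp5g1 in the 3 genes was 0.66 higher in LM1KO than in LM1 (exact permutation test, two-sided, p = 0.1, the smallest that 3 against 3 libraries allow) and 0.26 higher in LM9KO than in LM9 (p = 0.2, exact).

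The order of levels within the chain changed as well. Per kilobase of exon, Cox8a was the highest subunit in LM1 (391 CPM per kb) and LM9 (582), and Atp5b in LM1KO (353) and LM9KO (349.5). Uqcr10 was second of the subunits in LM1 at 258 CPM per kb and eleventh in LM1KO at 97.8. Uqcrh was at 194 CPM per kb in LM1 and 72.5 in LM1KO. As a share of all counts, the 79 subunit genes took 0.655 to 0.694% in LM1, 0.678 to 0.799% in LM9, 0.828 to 0.851% in LM1KO and 0.816 to 0.832% in LM9KO, so on library totals the KO-labelled libraries lay above the parental ones. On the TMM scale they did not. The summed level was 6924 to 7338 CPM in LM1, 7516 to 7682 in LM1KO and 7376 to 7523 in LM9KO, but 7153, 9665 and 9345 in LM9, where replicates 2 and 3 were the highest of all libraries.

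Differences between the parental lines rested on which LM9 libraries were used. With all 3, no member passed the comparison of LM1 with LM9 (background 0.0055%), although 63 of 92 had an unadjusted limma-voom p under 0.05 (68.5%, all genes 47.7%). DESeq2 called 60 of the 90 members to which it gave an adjusted p (66.7%, all genes 41.1%). Of the 92 estimates 84 were lower in LM1, with a median log2 difference of -0.26. Without LM9 replicate 1, 76 members (82.6%) were lower in LM1, against 32.4% of all genes, and 6 were higher, against 33.4%. Only LM9 replicates 2 and 3 remained in that fit. The library left out was singled out because it lay close to LM1. Its removal therefore favours a difference, and these calls are not independent of that choice. The 76 included 33 subunits of complex I, 12 of complex V, 7 of complex III and 2 of complex II. From complex IV they included Cox6a2, whose call sets 0 counts in LM1 against 1 count per LM9 library and carries no weight, and the other 13 subunits. The median log2 difference over members was then -0.39.

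The separation can be read library by library. In 66 of 77 subunits with a mean of at least 1 CPM (85.7%), LM9 replicates 2 and 3 both lay above every LM1 library and above LM9 replicate 1, and in 6 (7.79%) both lay below. Over all genes tested, without that cut on level, the same was true of 35.1% and 35.9%. The values of Cox6a1, Cox8a, Uqcr10 and Atp5b given here show it, and Ndufb9 had 242 CPM in LM9 replicate 1 and 445 and 425 in the others. The median log2 level of the subunits relative to the LM1 mean was 0.01 in LM9 replicate 1 and 0.40 and 0.36 in replicates 2 and 3, where all genes were at 0.01 and 0.03. With library totals the 2 subunit medians were 0.21 and 0.15, beside -0.19 and -0.18 over all genes. Uqcr11 and Atp5f1 were among the exceptions, with 26.4 and 118 CPM in LM9 replicate 1 and 19.1 and 99.4 in replicate 2.

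Several calls depended on LM9 replicate 1. Without it, no member lost its call and 20 gained one in LM9, 18 of them lower and 2 higher. Among the named genes that gained a fall in LM9 were Cox6a1 (-0.72), Atp5h (-0.58), Ndufv2 (-0.41), Atp5d (-0.37) and Uqcrc1 (-0.31). Ndufa2, Cox6c, Ndufs4, Ndufaf5, Cox7b, Ndufs3 and Ndufa3 did so with -0.24 to -0.16. Called LM9 changes that moved by over 1.5 times were those of Ndufc1 (0.32 to 0.51), Atp5l (-0.44 to -0.68) and Ndufs8 (0.44 to 0.27). On average over both lines 11 members gained a call. They were Ndufc1 (0.23), Cox7b (0.11), Cox6c (0.10) and Ndufa10 (0.095), which rose, and Atp5l (-0.37), Ndufs6 (-0.17), Cox6a1 (-0.15), Ndufb3 (-0.14), Ndufv2 (-0.12), Atp5h (-0.12) and Uqcrc1 (-0.11), which fell. The average rise of Ndufb8 was 0.24 with all libraries and 0.14 without that one.

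**Figure D3:**
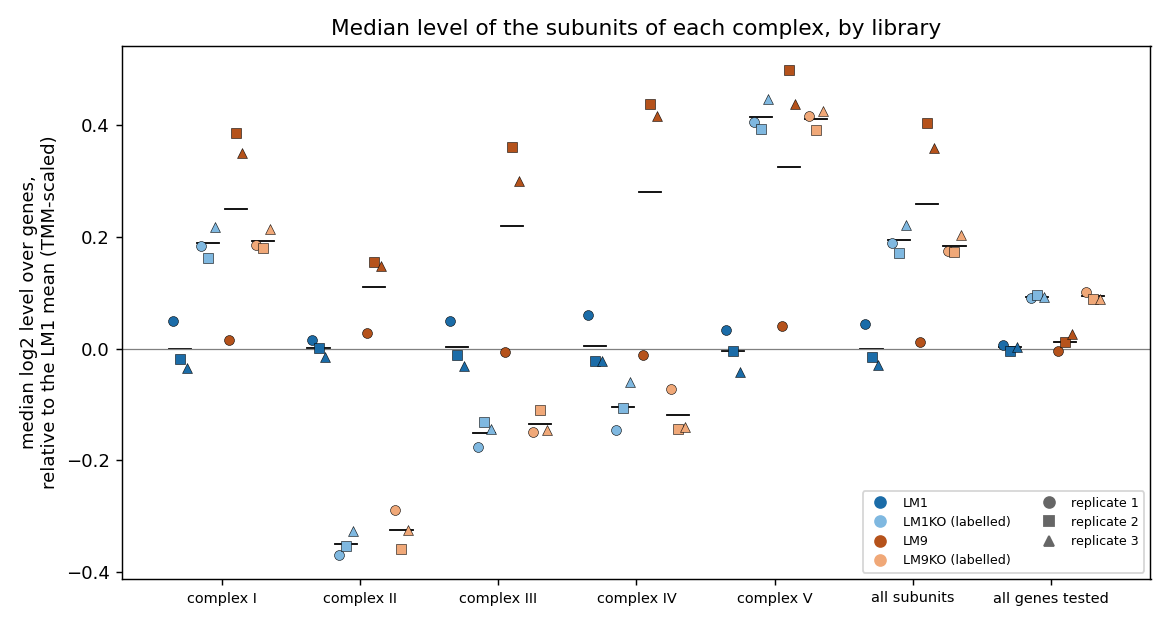
Median log2 level of the subunits of each complex in every library, relative to the mean of the LM1 libraries, on the TMM scale. Points are libraries, symbols mark replicates and lines group means. LM9 replicate 1 lies with LM1 for each complex, LM9 replicates 2 and 3 lie higher, and complex V alone has KO-labelled means (0.416 and 0.411) near those LM9 libraries, while complex II has KO-labelled means of -0.349 and -0.325.

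The KO-labelled lines could not be told apart at these genes. No member passed LM1KO against LM9KO (background 0%), none had an unadjusted p under 0.05 (all genes 0.979%), and the group ranges were apart for 15 of 92 (16.3%), against 12.6% of all genes. Between LM1 and LM1KO they were apart for 85 of 92 (92.4%, all genes 89.1%), and between LM9 and LM9KO for 64 (69.6%, all genes 80.5%). The difference between the lines in the change with the KO label was tested as an interaction. It passed for no member and no gene (0%), with 29 members under an unadjusted p of 0.05 (31.5%, all genes 24.7%). Without LM9 replicate 1, 78 of 92 members passed (84.8%, background 57.2%), 74 with a higher change in LM1 than in LM9 and 4 with a lower one. As with LM1 against LM9, leaving out the LM9 library closest to LM1 favours such calls. With sample quality weights and all libraries, 78 of 92 passed as well (84.8%, background 58.1%). The 4 with a lower change without LM9 replicate 1 were Atp5f1 (-0.29), Uqcr11 (-0.51), Ndufaf7 (-0.39) and Ndufc1 (-0.56), all of them also among the 6 that were higher in LM1 than in LM9. The median absolute difference between LM1KO and LM9KO over members was 0.03, so these interactions rest mainly on the LM1 and LM9 levels.

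Subunits encoded in mitochondrial DNA changed much more than their nuclear partners. Of 13 such genes 9 had values, and mt-Co2, mt-Co3, mt-Atp6 and mt-Atp8 were not analysed here. On average 8 of 9 rose (88.9%, background 46.3%), with a median over the 8 of 4.51 on the log2 scale. mt-Nd1, a complex I subunit, had 118, 145 and 129 CPM in LM1, 2598, 2570.1 and 2262 in LM1KO, 127, 49.3 and 52.0 in LM9 and 2484, 2732 and 2776 in LM9KO. mt-Cytb, the cytochrome b of complex III, had 106, 119 and 117 CPM in LM1, 2592, 2583 and 2385 in LM1KO, 112, 84.3 and 82.9 in LM9 and 2794, 2649.7 and 2709 in LM9KO, a 25.5-fold rise (4.67 ± 0.07, adjusted p = 2.92e-13). The largest of these changes was that of mt-Nd3 (6.65 ± 0.28, adjusted p = 5.47e-10), and mt-Nd6 went from 6.86 CPM in LM1 to 50.8 in LM1KO.

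mt-Co1, the catalytic subunit of complex IV, was the exception. It had 3144, 3646 and 3604 CPM in LM1, 3453, 3405 and 3177 in LM1KO, 3379.8, 4749 and 5271 in LM9 and 3487, 3527 and 3629.9 in LM9KO. Its change of -0.18 ± 0.09 did not pass (adjusted p = 0.0958), and without LM9 replicate 1 it was called lower at -0.27. Summed over the other 8 genes, the level was 0.20 to 0.211 times that of mt-Co1 in LM1, 0.20, 0.0629 and 0.0601 times in LM9, 2.84 to 3.04 times in LM1KO and 2.88 to 3.16 times in LM9KO. LM9 replicates 2 and 3 thus had the lowest sums of these 8 genes (299 and 317 CPM, against 628 to 771 in LM1 and 675 in LM9 replicate 1), while they were the highest for most nuclear subunits. Mitochondrial transcripts are cut from long precursors and have close copies in the nuclear genome, and the sources used here do not say how reads with several matches were counted, so these levels are uncertain.

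**Figure D4:**
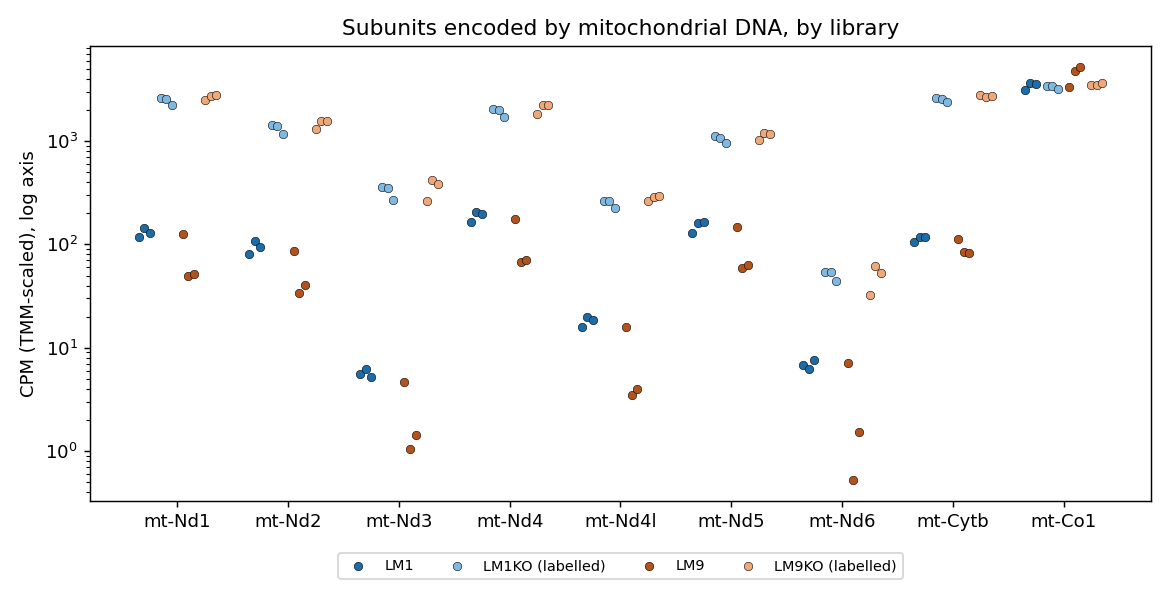
TMM-scaled CPM of the 9 mitochondrially encoded subunits in every library, on a log axis. In 8 genes the KO-labelled libraries lie far above the parental ones, as for mt-Nd1 at 2262 to 2776 CPM against 49.3 to 145, whereas the groups of mt-Co1 lie side by side.

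The median log2 level of the 9 mitochondrially encoded genes relative to that of the nuclear subunits was 3.27 higher in LM1KO than in LM1 and 4.47 higher in LM9KO than in LM9 (p = 0.1 each, exact permutation test, two-sided, the smallest possible). This was 1 of 11 log2 ratios tested in each line, none of which could pass, with Benjamini-Hochberg adjusted values of 0.11 in LM1 and 0.157 in LM9 for those at the smallest p. Among them was the median level of each complex relative to that of all nuclear subunits, which was lower in the KO-labelled libraries for all 5 complexes (p = 0.1 each, exact). The log2 differences for complexes I to V were -0.15, -0.74, -0.94, -0.42 and -0.07 in LM1 and -0.06, -0.52, -0.97, -0.45 and -0.18 in LM9. Computed from sums per length, those of complexes I and V were positive in both lines and that of complex II in LM9. Gene by gene against the LM1 mean (TMM scale), complex V was at 0.416 in LM1KO and 0.411 in LM9KO. All subunits were at 0.194 and 0.184, complex I was near them (0.188 and 0.194), and complexes II, III and IV were negative. The direction for complex V thus depended on the summary used.

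Other genes of the pathway were counted in the same way. Of 21 electron carriers and ubiquinone synthesis genes with values, 13 rose, 5 fell and 3 did not pass. Cyc1, the cytochrome c1 of complex III, rose from 63.4 to 249 CPM in LM1 and from 68.8 to 239 in LM9, and Cycs, cytochrome c itself, rose 4.49-fold on average. Coq8a, a kinase-like protein of ubiquinone synthesis, fell from 40.1 to 1.20 CPM in LM1 and from 44.6 to 1.24 in LM9 (-5.12 ± 0.11, adjusted p = 2.61e-12). Pdss1, which makes the ubiquinone side chain, went from 0.215 to 0.651 CPM in the LM1 libraries to 11.8 to 13 in LM1KO (4.99 ± 0.20, adjusted p = 3.08e-10), and was named after its values were seen. Within ubiquinone synthesis, as within complexes II and III, members moved in opposite directions, as did all genes tested (46.3% higher and 40.5% lower).

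Of 39 other assembly factors 24 rose, 10 fell and 5 did not pass. Sco2, a copper carrier for complex IV, had 2.37 CPM in LM1 and 63.7 in LM1KO, and 3.80 in LM9 and 58.8 in LM9KO (4.39 ± 0.14, adjusted p = 4.19e-11). Lrpprc, which stabilises mitochondrial mRNAs, rose 13.7-fold, from 9.81 to 133 CPM in LM1. Oxa1l, which inserts proteins into the inner membrane, fell 4.79-fold (-2.26 ± 0.05, adjusted p = 2.15e-12).

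Among 22 regulators of mitochondrial biogenesis 14 rose, 7 fell and Mterf3 did not pass. The mitochondrial DNA helicase Twnk rose 4.05-fold (2.02 ± 0.16, adjusted p = 2.06e-07), while Polg2, the accessory subunit of the mitochondrial DNA polymerase, fell 6.19-fold (-2.63 ± 0.14, adjusted p = 5.75e-09). Ppargc1a, the PGC-1alpha coactivator of mitochondrial biogenesis, also named after its values were seen, had at most 2 counts in any parental library and means of 0.510 CPM in LM1KO and 0.484 in LM9KO. Like Cox6a2 it entered the files through the group where it was high, so its call, 1 of the 14 rises, carries no weight. The 3 factors whose letters were sought in the promoters had different signs, with Nrf1 at -0.48, Gabpa at 1.05 and Yy1 at -1.27, all called. Of the 4 hypoxia-linked genes with values, the protease Lonp1 (1.45) and Higd1a (0.80) rose, and the mitophagy receptor Bnip3 (-2.77) and the kinase Pdk1 (-2.06) fell. The counts of these lists stand beside 46.3% of all genes higher and 40.5% lower, and the lists were not tested as sets.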

How the data were processed

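The deposited values were whole counts per gene, not normalised, for 12 libraries. Per the labels and the study's methods, polyadenylated RNA libraries (TruSeq stranded mRNA) were read from one end, aligned with STAR to mm10 and counted over exons with QuasR by the authors. Versions, the treatment of reads with several matches and the use of strand in counting are not given in the sources used here. Gene names came from the mouse GENCODE M21 annotation (18268 of 18278 identifiers matched). Members and lists were chosen with earlier results of these data known. Genes kept by filterByExpr (minimum count 10, minimum total 15) numbered 18176. Counts were fitted with limma 3.58.1 (voom, offset 0.5, TMM factors 0.822 to 1.11 from edgeR 4.0.16, R 4.3.3) with 1 mean per group over all 12 libraries, and Benjamini-Hochberg adjusted p-values under 0.05 were called. The average contrast is the mean of both lines' changes. Single ratios were compared by exact permutation. Named were, in each complex, the 2 largest called rises and falls with a mean of at least 10 CPM, core subunits and paired isoforms, and in each other list the largest called rise and fall with such a mean; other genes were named after their values were seen, and 1 member is counted but not reported here. Promoters are from RefSeq. Of 92 members 35 share exon bases with another gene. On simulated counts, with 200 genes changed by 1 on the log2 scale and a dispersion of 0.01, 200 of 200 were recovered. There were 9 false calls among 17702 genes. Far more genes changed in the data and LM9 was less even, so this checks the code and not the error rate here. With depths of 29249075 to 37162594 counts, floors of 3 counts cover counting error only, and SEs the spread between libraries. Alternatives were DESeq2 1.42.0, edgeR's quasi-likelihood test, other scalings and filters, a replicate block and leaving out each library.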

Additional observations from a re-analysis of the deposited data

How the results depend on the processing

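The counts of members changed with the KO label stayed within 1.5 times under every alternative run (71 in LM1, 66 in LM9 and 71 on average, from 64 to 82, 63 to 86 and 69 to 82 on leaving out 1 library), and LM1KO against LM9KO gave 0 throughout. Other results did not hold. For LM1 against LM9, 0 members became 60 with DESeq2 (all genes 41.1%), 17 of 92 (18.5%) with library totals (28.8%), 38 of 89 (42.7%) from a mean of 5 CPM (39.4%), 80 (87.0%) with sample quality weights (63.8%) and 0 to 82 on leaving out 1 library. For the interaction, 0 became 78 (84.8%) with quality weights (all genes 58.1%) and 0 to 78 on leaving out 1 library; both upper values are without LM9 replicate 1. The subunit median of 0.24 in LM1 became 0.29 with upper-quartile factors, 0.46 with library totals and 0.19 from a mean of 5 CPM (0.18 to 0.26 on leaving out 1 library). That of -0.07 in LM9 became 0.28 with library totals (-0.23 to -0.01). Library totals also reversed Sdha (0.11 on average, 0.058 in LM1, 0.17 in LM9), Uqcrfs1 in LM1 (0.0046) and Cox7a2 (0.080 on average, 0.045 in LM9). Quality weights and the fit without LM9 replicate 1 reversed Cox6a1 on average (-0.14 and -0.15) and Cox5b in LM9 (-0.25 and -0.30, and 0.21 without LM9 replicate 2). Log2 ratios to all subunits reversed as sums per length for complex I (0.10 in LM1 and 0.10 in LM9), complex V (0.47 and 0.51) and complex II in LM9 (0.040). The Cox7a1 to Cox7a2 ratio in LM9, -0.06, was -0.34 to 0.23 on leaving out 1 library, with 0.044, 0.10 and 0.23 without LM9 replicate 1, LM9 replicate 2 and LM9KO replicate 1. The cause of these shifts was not tested. Adding a block for replicate numbers gave counts of 70, 66 and 71; correlations of same-numbered deviations were -0.059 to 0.025, so the libraries share only a number.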

Other observations

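Ribosomal proteins of the mitochondrion, which translate the mitochondrially encoded subunits, were mostly higher in the KO-labelled libraries. Of 78 Mrpl and Mrps genes tested, 52 rose on average over both lines, 13 fell and 13 did not pass the limma-voom test, beside 46.3% of all genes higher and 40.5% lower. Their median log2 fold change was 0.60. With library totals 61 rose and 9 fell, beside 52.8% and 33.6% of all genes. The largest rise with a mean of at least 10 CPM was in Mrpl54 (2.87 ± 0.09, adjusted p = 6.12e-11) and the largest fall in Mrpl38 (-1.55 ± 0.13, adjusted p = 2.12e-07), both of the large ribosomal subunit. The list was not tested as a set.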
